A study of Mus musculus with 20 samples.

Results

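The data described here are the change of gene expression between 2 h and 6 h of stimulation in bone marrow-derived macrophages (BMDMs), and how that change differed with dimethyl itaconate. For each gene the step from 2 h to 6 h on the log2 scale in the treated cells was set against the same step in the control cells, (DI at 6 h minus DI at 2 h) minus (Ctrl at 6 h minus Ctrl at 2 h). This quantity is called the response difference. It is positive where a transcript fell less or rose more with dimethyl itaconate and negative where it fell more or rose less. It rests on 8 of the 20 libraries of the series, 2 for each of Ctrl at 2 h, Ctrl at 6 h, DI at 2 h and DI at 6 h, and was tested for all 10663 genes with enough reads. All cells were BMDMs from C57BL/6 mice with no genetic change named, grown for 7 days in RPMI with m-CSF, and all 8 libraries came from cells stimulated with LPS + IFNg. The DI cells had 250 µM dimethyl itaconate for 12 h before the stimulus and the Ctrl cells had none. The labels name no vehicle for the Ctrl cells and do not say whether the 2 replicates of a group came from separate mice or cultures. The p-values below therefore measure spread between libraries only. That spread was estimated for each gene over all 20 libraries, with both treatments together. The median absolute log2 difference between replicates was 0.538 at 2 h and 0.567 at 6 h in DI. In Ctrl it was 0.327 and 0.359. Simulated counts were given a wider spread in DI than in Ctrl, but the effect of the unequal spread on the calls reported here was not tested.

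LPS, a bacterial cell wall component, acts through TLR4 on the transcription factor NF-kB and on MAP kinases, while IFNg acts through its own receptor and JAK kinases. The first wave of cytokine, chemokine and transcription factor genes is followed by inhibitors made in response to the same signals, such as IkB proteins, MAP kinase phosphatases and mRNA decay factors, so that many early transcripts pass a peak and decline while a later wave is still building. Itaconate is made by activated macrophages through Acod1. Its dimethyl ester enters cells, is electrophilic, and is known to activate the antioxidant transcription factor NRF2 and to limit the protein IkBz.

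The comparison of the 2 treatments after 2 h asks whether the early wave resolves in the same way. Among the called genes were 3 near neighbours on chromosome 5 that encode the neutrophil-attracting chemokines CXCL1, CXCL2 and CXCL3. In the GENCODE annotation of GRCm38 all of them are protein-coding genes on the + strand, Cxcl3 at chr5:90786103-90789600, Cxcl1 at chr5:90891241-90893115 and Cxcl2 at chr5:90903871-90905938. Their promoters are shown because they share a sequence of the kind NF-kB binds. Each line gives the 160 bases before the RefSeq start site in GRCm38.p6, 5′ to 3′ on the + strand, from chr5:90891085-90891244 for Cxcl1, chr5:90903739-90903898 for Cxcl2 and chr5:90785941-90786100 for Cxcl3, with matches to the kappaB motif GGGNNTTTCC on either strand in capitals.
Cxcl1: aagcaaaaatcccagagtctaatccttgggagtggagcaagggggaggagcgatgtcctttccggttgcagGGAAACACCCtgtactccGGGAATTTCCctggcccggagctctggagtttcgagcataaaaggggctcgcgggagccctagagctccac
Cxcl2: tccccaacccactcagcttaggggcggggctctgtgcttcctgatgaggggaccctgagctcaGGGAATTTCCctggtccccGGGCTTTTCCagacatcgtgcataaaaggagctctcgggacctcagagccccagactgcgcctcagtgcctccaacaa
Cxcl3: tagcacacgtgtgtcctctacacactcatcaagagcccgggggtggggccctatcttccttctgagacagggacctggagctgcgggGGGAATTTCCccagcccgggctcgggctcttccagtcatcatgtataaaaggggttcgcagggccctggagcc

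All 3 stretches held the run GGGAATTTCC, and Cxcl1 and Cxcl2 had a second match beside it. Over the 300-base windows of the RefSeq table, from 250 bases before to 50 after the start, the motif was found in 1.89% of 27025 genes and in 2.12% of the 8484 tested genes with a promoter in the table. A match describes the letters and not a bound site.

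Cxcl1 was at 228 and 286 CPM (read counts scaled to a common library size) in the Ctrl libraries at 2 h and at 13.2 and 32.9 CPM at 6 h. In the DI libraries it was at 101 and 77.1 CPM at 2 h and at 299.6 and 281 CPM at 6 h. The order of the treatments turned round, with every DI library below every Ctrl library at 2 h and above them at 6 h. Cxcl1 fell in Ctrl by 3.47 on the log2 scale and rose in DI by 1.70, and the response difference was 5.17 ± 0.56 (SE, n = 2 libraries a group, adjusted p = 1.21e-05 by edgeR's quasi-likelihood test).

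Cxcl2, the most abundant of the trio in these 3'-end counts, was at 6673 and 9339 CPM in Ctrl at 2 h and at 795 and 847 CPM at 6 h. The DI libraries held 5014 and 4101 CPM at 2 h and at 5172 and 8709 CPM at 6 h. It fell in Ctrl by 3.29, while its DI step of 0.61 did not pass the test (adjusted p = 0.19). The DI libraries were thus no lower at 6 h than at 2 h, and the response difference was 3.89 ± 0.42 (adjusted p = 1.21e-05).

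Cxcl3 was a low transcript in Ctrl, at 22.9 and 20.05 CPM at 2 h and at 3.22 and 12.9 CPM at 6 h, a step that missed the threshold (-1.38, adjusted p = 0.051). The DI libraries held 28.4 and 31.5 CPM at 2 h and at 252 and 166 CPM at 6 h. The treatments were close at 2 h and far apart at 6 h, and Cxcl3 rose in DI by 2.80, for a response difference of 4.19 ± 0.63 (adjusted p = 0.00153). The calls of Cxcl1, Cxcl2 and Cxcl3 held without each of the 8 libraries in turn and under every alternative tried.

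Across all genes, 66 passed an adjusted p of 0.05, 0.619% of the 10663 tested, with 35 higher (0.328%) and 31 lower (0.291%) response differences. The steps themselves were much more often called. In Ctrl 1344 genes (12.6%) changed between 2 h and 6 h, 667 up (6.26%) and 677 down (6.35%), and in DI 1089 genes (10.2%) did, 499 up (4.68%) and 590 down (5.53%). With another scaling, on genes of at least 32 CPM, the Ctrl split was 515 up and 794 down. The threshold had no gap at its edge, with Mylip, Pdik1l and Epb41l1 just inside at an adjusted p of 0.0455 and Rnf113a2 (0.0507) and Dusp4 (0.0537) just outside.

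The 35 higher genes were mostly transcripts that fell in Ctrl without a called fall in DI. In Ctrl 30 of them fell, 1 rose and 4 were not called, and in DI 4 fell, 8 rose and 23 were not called. Their median steps were -2.56 in Ctrl and 0.38 in DI. A higher response difference did not always mean a higher level in DI at 6 h. Of the 35, 6 were called lower in DI than in Ctrl at 2 h and had no called difference at 6 h. The 31 lower genes were of another kind. In Ctrl 21 of them rose and 10 were not called, and in DI 14 fell, 16 were not called and 1 rose, with median steps of 1.38 and -0.93. These counts share libraries with the contrast that chose the genes, and describe which arm moved. Some markers of other cells also moved in these libraries. Their sums are scaled by the total reads of a library, without the scaling factors used for single genes. Those factors were 0.928 and 0.942 in Ctrl at 2 h and 0.765 and 0.808 at 6 h. With them the Ctrl sums at 6 h would be raised more than those at 2 h. The 10 neutrophil markers, of which 7 to 10 were detected, summed to 444 and 491 CPM in Ctrl at 2 h and 261 and 272 CPM at 6 h, against 528 and 304 CPM and then 551 and 336 CPM in DI. Of 9 tested, 3 fell in Ctrl and 0 in DI, against 6.35% and 5.53% of all genes, and their median response difference was 0.92. By edgeR 0 were called in the response difference, 0 had an unadjusted p under 0.05, and DESeq2 called 0. The 8 dendritic markers, of which 3 to 6 were detected, summed to 15.3 and 18.9 CPM and then 43.5 and 45.8 CPM in Ctrl. In DI they summed to 7.24 and 30.3 CPM and then 13.8 and 19.6 CPM, with Ccl17 and Cd209a at 0 throughout. Much of the rise in Ctrl lay in Ccr7. On the single-gene scale Ccr7 went from 2.22 and 5.41 CPM to 34.7 and 45.7 CPM in Ctrl. Siglech was at 8.86 and 10.3 CPM and then 10.4 and 5.98 CPM there, and Flt3 was at 0 in both Ctrl libraries at 6 h. Ly6g, Mpo, Retnlg or Elane was at 0 in each of these libraries except the first Ctrl library at 2 h. The part of these markers in the called genes was not tested.

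**Figure D1:**
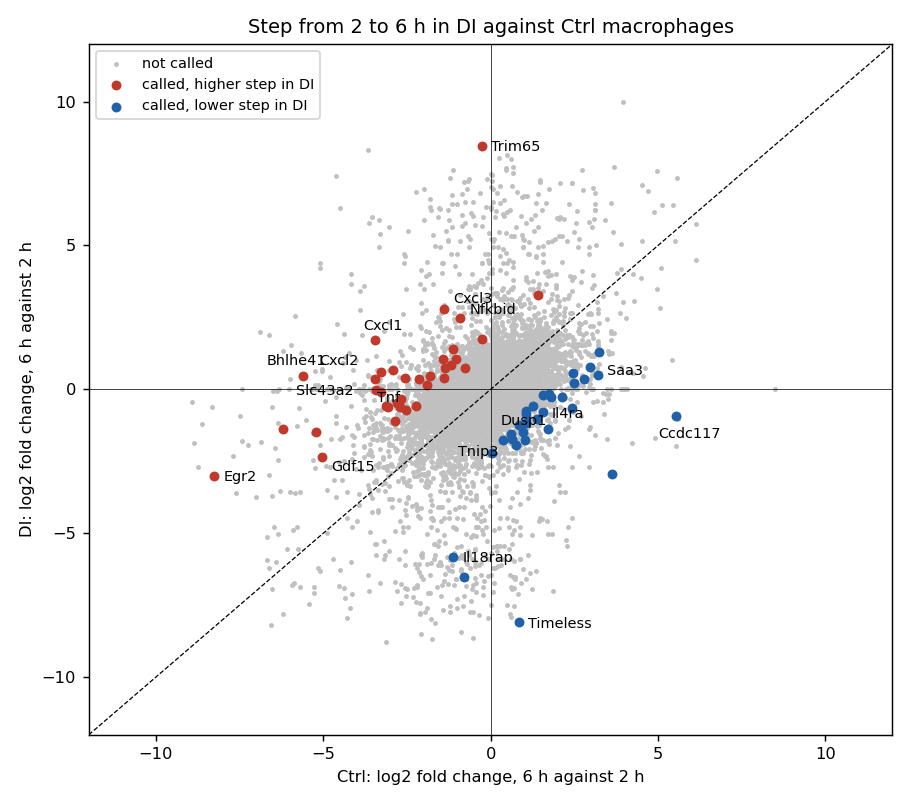
Each point is 1 of the 10663 genes tested, with its log2 fold change from 2 h to 6 h in Ctrl on the x axis and in DI on the y axis; red and blue points are the 35 higher and 31 lower response differences, and the dashed line marks equal steps. Most red points lie left of 0 on the Ctrl axis and near 0 on the DI axis, while the blue points lie right of 0 or below it.

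Tnf, Nfkbid and the chemokine trio were the members of the NF-kB primary response list that were called, 5 of 31 tested, all higher by edgeR, against 0.328% of all genes. DESeq2 called 6 higher and 2 lower. Over all 10663 genes DESeq2's Wald test called 98 higher and 143 lower, more than edgeR in both directions. Those all-gene counts, not the edgeR shares, are the background for the DESeq2 calls of every list. The list's median response difference was 0.32, beside 0.00 over all genes tested. Tnf, the cytokine that feeds NF-kB activation back on neighbouring cells, was at 1346 and 1519 CPM in Ctrl at 2 h and at 269 and 345 CPM at 6 h. The DI libraries held 1076 and 1270 CPM at 2 h and at 862 and 717 CPM at 6 h. Both treatments were thus close at 2 h, and the DI libraries stood above the Ctrl libraries at 6 h. Tnf fell in Ctrl by 2.22, its DI step was -0.57 (adjusted p = 0.17), and the response difference was 1.65 ± 0.37 (adjusted p = 0.0324). That call was lost without any 1 of the 8 libraries, with adjusted p-values of 0.0538 to 0.178.

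Nfkbid encodes IkBNS, a nuclear IkB protein that modulates NF-kB target genes. It was at 22.4 and 23.7 CPM in Ctrl at 2 h and at 13.6 and 11.1 CPM at 6 h, and in DI it went from 3.63 and 7.22 CPM to 29.8 and 30.6 CPM. As with Cxcl1, the order of the treatments at 6 h was the reverse of that at 2 h. Nfkbid rose in DI by 2.48, its Ctrl step of -0.91 was not called, and the response difference was 3.39 ± 0.60 (adjusted p = 0.00476). Another nuclear IkB protein, IkBz, is encoded by Nfkbiz, which moved the other way without passing the test. Nfkbiz was at 1659 and 1694 CPM in Ctrl at 2 h and at 839 and 702 CPM at 6 h, against 885 and 758 CPM and then 104 and 165 CPM in DI, a response difference of -1.49 ± 0.36 (adjusted p = 0.0562). Nfkbia, the classical feedback inhibitor, and Tnfaip3, which encodes the ubiquitin-editing enzyme A20, had response differences of -0.45 and -0.18 with adjusted p-values of 0.694 and 0.942.

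**Figure D2:**
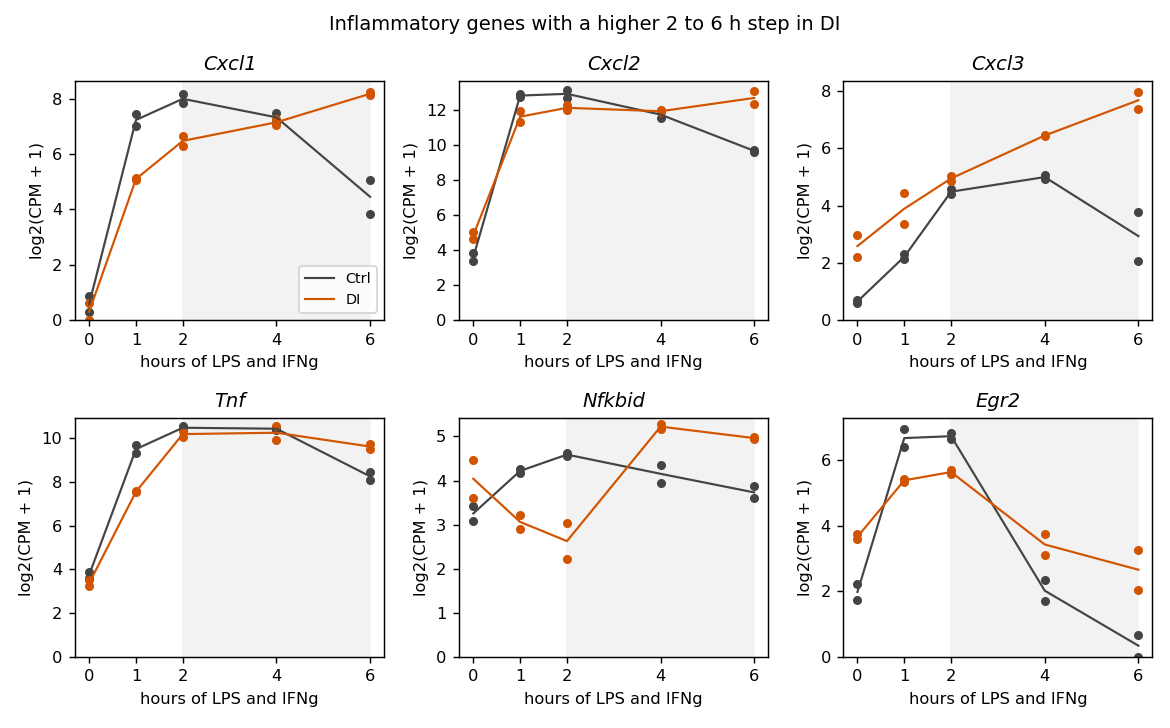
Log2(CPM + 1) at 0, 1, 2, 4 and 6 h of LPS and IFNg for 6 genes with a higher response difference; points are libraries, lines join the means of the 2 libraries, and the shaded span is 2 h to 6 h. The Ctrl lines drop across the shaded span for Cxcl1, Cxcl2 and Tnf, while the DI line of Cxcl1 climbs.

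Among the immediate-early genes, which need no new protein for their induction, 1 of 18 tested was called higher, against 0.328% of all genes. It was Egr2, a zinc finger transcription factor. Egr2 was at 112 and 98.7 CPM in Ctrl at 2 h and at 0 and 0.598 CPM at 6 h. In DI it was at 50.6 and 46.7 CPM at 2 h and at 8.63 and 3.11 CPM at 6 h. It fell in both, to a far lower level in Ctrl, where 1201 reads at 2 h were followed by 2 at 6 h, a ratio of 317-fold with a 95% counting interval of 87.5 to 2618. Such intervals cover counting error only. The response difference was 5.24 ± 0.88 (adjusted p = 0.00476), and 9.25 without the second Ctrl library at 6 h (adjusted p = 0.0178), since the other had no Egr2 read. Egr1, its close relative, fell in both treatments, from 156 and 149 CPM to 13.96 and 6.28 CPM in Ctrl and from 89.6 and 65.8 CPM to 4.52 and 5.10 CPM in DI, a response difference of -0.09 ± 0.50 (adjusted p = 0.983). Fos and Jun, which pair in the factor AP-1, had response differences of 2.49 ± 0.66 and -1.69 ± 0.43, neither past the threshold (adjusted p = 0.0854 and 0.0668). The list's median was -0.25, and DESeq2 called 2 of its members higher and 1 lower. Egr2 was not called by limma-voom (adjusted p = 0.0833).

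Gdf15, a stress-induced cytokine of the TGF-beta family, was at 214 and 275 CPM in Ctrl at 2 h and at 6.44 and 8.37 CPM at 6 h, and at 745 and 714 CPM and then 178 and 109 CPM in DI. It was higher in DI than in Ctrl at both times and fell in both, by 5.03 in Ctrl and by 2.35 in DI, for a response difference of 2.69 ± 0.50 (adjusted p = 0.0075). The call was lost without the first Ctrl library at 6 h (adjusted p = 0.079).

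Ppp1r15a encodes GADD34, which directs the phosphatase that restores translation after eIF2 alpha phosphorylation. It was at 561 and 615 CPM in Ctrl at 2 h and at 97.0 and 86.4 CPM at 6 h, while in DI it was at 142 and 176 CPM at 2 h and at 108 and 145 CPM at 6 h. The DI libraries were the lower ones at 2 h and slightly the higher ones at 6 h, and the response difference was 2.36 ± 0.41 (adjusted p = 0.00476). Phlda1, a pleckstrin homology-like protein, went from 255 and 305 CPM to 111 and 105 CPM in Ctrl and from 233 and 276 CPM to 366 and 481 CPM in DI, a response difference of 2.11 ± 0.38 (adjusted p = 0.00537). Phlda1 was alike in both treatments at 2 h and apart at 6 h.

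The following were picked after their values were seen. Rhob, a small GTPase of endosomes, fell in Ctrl from 324 and 315 CPM to 31.8 and 41.9 CPM and was at 112 and 165 CPM and then 121 and 66.0 CPM in DI (response difference 2.55 ± 0.46, adjusted p = 0.00537; 0.0581 without the first Ctrl library at 6 h). Zfp36l1, an mRNA decay factor, and Bcl2l11, which encodes the pro-apoptotic protein BIM, also fell further in Ctrl. Their response differences were 1.75 ± 0.40 and 1.80 ± 0.38 (adjusted p = 0.0373 and 0.0232). Zfp36l1 was at 917 and 1086 CPM and then 154 and 124 CPM in Ctrl. In DI it was at 167 and 273 CPM and then 88.4 and 117 CPM, so it was lower in DI at 2 h and not higher at 6 h. Bcl2l11 was at 717 and 511 CPM and then 107 and 106 CPM in Ctrl, and at 300 and 441 CPM and then 190 and 260 CPM in DI. Zfp36l1 lost its call without any Ctrl library, the first DI library at 2 h or the second at 6 h, with adjusted p-values up to 0.232. Bcl2l11 lost its call without the first DI library at 2 h, the second at 6 h, or any Ctrl library except the second at 2 h, with adjusted p-values up to 0.176.

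Slc43a2, a transporter of large neutral amino acids, was at 187 and 198 CPM in Ctrl at 2 h and at 22.2 and 13.8 CPM at 6 h. In DI it was at 428 and 394 CPM at 2 h and 430 and 389 CPM at 6 h. The DI libraries were the higher ones at both times, and the whole of the response difference of 3.42 ± 0.43 (adjusted p = 1.19e-04) came from the fall of 3.43 in Ctrl, since the DI step was -0.01. Slc16a10, a transporter of aromatic amino acids, was alike at 2 h, at 63.7 and 61.1 CPM in Ctrl and 63.8 and 75.6 CPM in DI. At 6 h it was at 13.6 and 14.6 CPM in Ctrl and 98.6 and 81.0 CPM in DI, for a response difference of 2.51 ± 0.44 (adjusted p = 0.00476). Both calls held without each of the 8 libraries in turn.

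Slc7a11 encodes the cystine and glutamate exchanger that feeds glutathione synthesis, and with Srxn1, which encodes sulfiredoxin, it was 1 of 2 called among 33 NRF2 target genes tested, both higher, against 0.328% of all genes. Slc7a11 was at 110 and 149 CPM and then 39.0 and 30.8 CPM in Ctrl, and at 303 and 456 CPM and then 346 and 502 CPM in DI. Srxn1 was at 53.9 and 39.3 CPM and then 15.4 and 19.7 CPM in Ctrl, and at 485 and 447 CPM and then 703 and 509 CPM in DI. Both were higher in DI than in Ctrl throughout, fell in Ctrl and had no called step in DI, with response differences of 2.05 ± 0.40 and 1.78 ± 0.40 (adjusted p = 0.0131 and 0.0324).

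Slc7a11 lost its call without the second Ctrl library at 2 h, the second at 6 h or the second DI library at 6 h (adjusted p up to 0.115). Srxn1 lost its call without the first Ctrl library at 2 h, either Ctrl library at 6 h, the second DI library at 2 h or the first at 6 h (adjusted p up to 0.191). The median of the NRF2 list was 0.64, and DESeq2 called 4 of its members higher. Hmox1, which encodes the haem-degrading enzyme heme oxygenase, and Gclm, part of the first enzyme of glutathione production, had response differences of 1.34 and 0.57 with adjusted p-values of 0.226 and 0.622.

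The lower genes included Tnip3 and Dusp1, which encode inhibitors of inflammatory signalling. Of 22 genes listed as feedback brakes and tested, 3 were called, all lower by edgeR, against 0.291% of all genes. They were Tnip3, Dusp1 and the receptor chain Il4ra. This list, like the others, was chosen with earlier results of these data known, so its share is a description and no test. The list's median was -0.82. DESeq2 called 1 higher and 6 lower. Tnip3 encodes ABIN-3, of the A20-binding protein family. In Ctrl it was at 1515 and 1375 CPM at 2 h and at 2270 and 2266 CPM at 6 h, and in DI at 920 and 951 CPM at 2 h and at 306 and 254 CPM at 6 h. The DI libraries were below the Ctrl libraries at 2 h and by a much wider margin at 6 h. Tnip3 fell in DI by 1.74, its Ctrl step of 0.65 was not called, and the response difference was -2.39 ± 0.35 (adjusted p = 9.6e-04).

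Il4ra, the receptor chain shared by IL-4 and IL-13, was at 82.2 and 88.4 CPM in Ctrl at 2 h and at 241 and 264 CPM at 6 h. With DI it was at 141 and 146 CPM at 2 h and at 80.4 and 85.2 CPM at 6 h. Il4ra was thus the higher in DI at 2 h and the lower at 6 h, with no overlap at either time. It rose in Ctrl by 1.56 and fell in DI by 0.79, and the response difference was -2.36 ± 0.36 (adjusted p = 0.00182). The calls of Tnip3 and Il4ra held without each of the 8 libraries in turn and under every alternative tried.

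Dusp1 encodes a nuclear phosphatase that switches off p38 and JNK, and its transcript is a known target of cyclic AMP signalling. The promoter is shown because Dusp1 was the only 1 of the 26 called-lower genes with a promoter in the table to hold the CRE motif TGACGTCA, in capitals (the motif reads alike on both strands). The line gives the 160 bases before the RefSeq start on the - strand of GRCm38.p6, chr17:26508473-26508632.
Dusp1: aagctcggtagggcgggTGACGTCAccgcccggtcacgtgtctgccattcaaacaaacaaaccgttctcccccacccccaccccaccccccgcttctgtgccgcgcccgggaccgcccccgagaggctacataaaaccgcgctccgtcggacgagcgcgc

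The CRE motif was in the 300-base windows of 3.76% of the tested genes with a promoter and of 2 of 29 called-higher genes, Nfkbid and Ppp1r15a. The kappaB motif was in 3 of the same 29, which were Cxcl1, Cxcl2 and Cxcl3, and in 1 of the 26 lower genes, Il4ra. Dusp1 was at 244 and 346 CPM in Ctrl at 2 h and at 515 and 393 CPM at 6 h. The DI libraries held 566 and 791 CPM at 2 h and at 251 and 215 CPM at 6 h. The treatments changed places between the times here as for Il4ra. Dusp1 fell in DI by 1.54, its Ctrl step of 0.62 was not called, and the response difference was -2.16 ± 0.41 (adjusted p = 0.00991). It lost the call without the first Ctrl library at 2 h or at 6 h or the second DI library at 2 h or at 6 h (adjusted p = 0.0538 to 0.113).

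Socs3, which inhibits cytokine receptors that signal through STAT3, was at 673 and 567 CPM and then 587 and 554 CPM in Ctrl. In DI it was at 638 and 374 CPM and then 204 and 125 CPM, and its response difference of -1.50 ± 0.51 did not pass (adjusted p = 0.198). Zfp36, which encodes the mRNA decay factor tristetraprolin, had -0.84 ± 0.37 (adjusted p = 0.354). Il10, the anti-inflammatory cytokine, was at 17.5 and 21.1 CPM and then 52.6 and 71.7 CPM in Ctrl, and at 0.681 and 5.93 CPM and then 1.03 and 0 CPM in DI. Its value of -4.12 ± 1.10 did not pass either (adjusted p = 0.0857). Dusp4, another MAP kinase phosphatase, was on the other side at 2.19 ± 0.53 (adjusted p = 0.0537), so the brakes did not share 1 direction.

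Nfil3, a leucine zipper repressor, was alike in the 4 libraries of 2 h, at 65.5 and 57.2 CPM in Ctrl and 61.3 and 61.1 CPM in DI. At 6 h it was at 61.9 and 65.5 CPM in Ctrl and 13.8 and 12.5 CPM in DI. Only the DI step was called, and the response difference was -2.27 ± 0.46 (adjusted p = 0.0172). Nfil3 lost its call without any Ctrl library or the second DI library at 6 h (adjusted p = 0.0604 to 0.117).

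Il18rap, the accessory chain of the IL-18 receptor, was at 38.9 and 51.0 CPM and then 19.0 and 22.7 CPM in Ctrl, and at 29.3 and 39.5 CPM and then 0.822 and 0.283 CPM in DI. Its level in DI at 6 h was near the limit of detection, and the response difference was -4.71 ± 0.76 (adjusted p = 0.00304), a call that held without each of the 8 libraries.

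Some genes of the later wave rose in Ctrl without a called rise in DI. Saa3, an acute-phase serum amyloid A protein and the only called member of 7 IkBz-dependent genes tested (lower, against 0.291% of all genes), was at 49.97 and 118 CPM in Ctrl at 2 h and at 739 and 830 CPM at 6 h. In DI it was at 23.4 and 45.7 CPM and then 64.1 and 33.7 CPM, so that 1 of its 6 h libraries lay above both 2 h libraries and the other between them. Of the 7 IkBz-dependent genes DESeq2 called 2 lower, and their median response difference was -6.28e-05. Saa3 rose in Ctrl by 3.22, its DI step of 0.51 was not called, and the response difference was -2.71 ± 0.54 (adjusted p = 0.0152). It lost the call without the first Ctrl library at 2 h, the second at 6 h, or the second DI library at either time (adjusted p = 0.0622 to 0.115).

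March1, a ubiquitin ligase that removes MHC class II from the surface, rose in Ctrl from 47.0 and 46.4 CPM to 321 and 326 CPM and was at 83.7 and 69.4 CPM and then 94.7 and 101 CPM in DI. The response difference was -2.44 ± 0.55 (adjusted p = 0.0324), and the call was lost without any 1 of the 8 libraries (adjusted p = 0.0575 to 0.146). Cp, which encodes the copper ferroxidase ceruloplasmin and was picked after its values were seen, rose in Ctrl from 151 and 127 CPM to 1272 and 914 CPM and was at 19.3 and 29.4 CPM and then 36.4 and 46.2 CPM in DI. Its response difference was -2.21 ± 0.49 (adjusted p = 0.0302), lost without either Ctrl library at 2 h, the first at 6 h, the second DI library at 2 h or either DI library at 6 h (adjusted p = 0.0614 to 0.153).

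**Figure D3:**
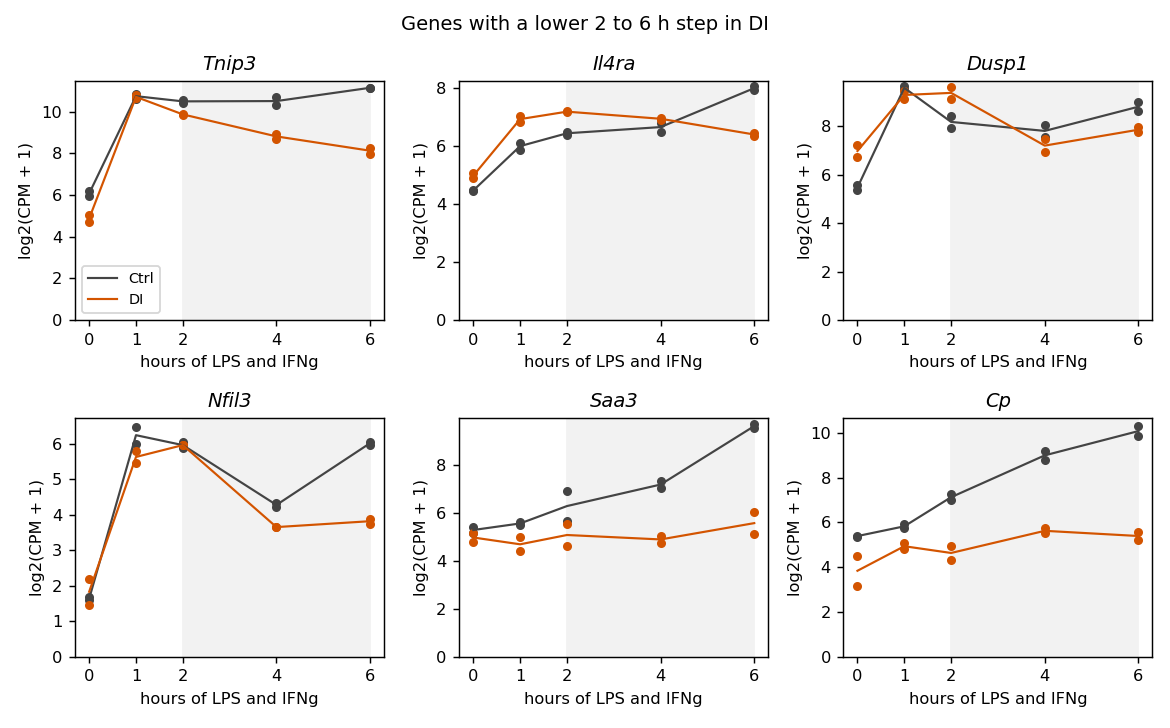
Log2(CPM + 1) at 0, 1, 2, 4 and 6 h for 6 genes with a lower response difference; points are libraries, lines join the means of the 2 libraries, and the shaded span is 2 h to 6 h. Tnip3, Il4ra, Dusp1 and Nfil3 are lower in DI at 6 h than at 2 h, while the Ctrl lines of Saa3 and Cp climb.

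The cytokines best known as LPS products were mostly outside the called set, although their levels differed widely between treatments. Il6 was at 137 and 166 CPM and then 292 and 265 CPM in Ctrl, against 17.02 and 29.4 CPM and then 18.1 and 38.8 CPM in DI, a response difference of -0.59 ± 0.51 (adjusted p = 0.715). Il1b was at 367 and 523 CPM and then 504 and 494 CPM in Ctrl, against 46.3 and 36.1 CPM and then 105 and 86.6 CPM in DI, a response difference of 1.05 ± 0.45 (adjusted p = 0.349). Both cytokines were lower in every DI library than in any Ctrl library of the same time, with no called difference in the step between the times.

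Il12b, a subunit of IL-12 and IL-23, was at 767 and 739 CPM and then 1505 and 892 CPM in Ctrl, against 0 and 1.29 CPM and then 3.29 and 5.95 CPM in DI, and its fitted value did not pass (adjusted p = 0.283). Nos2, the inducible nitric oxide synthase, rose in both, by 2.38 in Ctrl and 3.95 in DI (response difference 1.57 ± 0.57, adjusted p = 0.235). Acod1 was at 13362 to 15204.5 CPM over the Ctrl libraries and 13522 to 27230 CPM over the DI libraries of these times, with a response difference of -0.04 ± 0.41 (adjusted p = 0.997). Ptgs2, the prostaglandin-forming enzyme COX-2, had 1.35 ± 0.44 (adjusted p = 0.175). Of 24 secondary effector genes tested 1 was called, Slc7a11, which was higher, against 0.328% of all genes, and the list median was -0.02. DESeq2 called 1 of the list higher and 1 lower.

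Several lists had no called member by edgeR. The share of all genes with an unadjusted p under 0.05 is not given here. Counts at that limit, for these and the remaining lists, therefore cannot be read as many or few. Of 35 type I interferon-stimulated genes 4 had an unadjusted p under 0.05 and DESeq2 called 1 higher, with a median of -0.27. Of 21 IFNg-induced GTPases and regulators 5 had an unadjusted p under 0.05 and DESeq2 called 1 lower, with a median of 0.10. Of 18 MHC class I presentation genes none had an unadjusted p under 0.05 and DESeq2 called 0, with a median of 0.02. Irf1, an interferon regulatory factor, and the chemokines Cxcl10 and Ccl5 had response differences of -0.54, -0.31 and 0.43 (adjusted p = 0.607, 0.802 and 0.708). The interferon arm thus had no gene called by edgeR at this number of libraries, which does not show that it was equal.

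The remaining lists were likewise without a call by edgeR. The numbers with an unadjusted p under 0.05 were 6 of 15 for the ATF4 integrated stress response (DESeq2 called 1 lower), 4 of 21 for glycolysis and HIF1A targets (DESeq2 0) and 3 of 20 for cholesterol synthesis and LDL uptake (DESeq2 1 lower). They were 3 of 14 for cytosolic heat shock chaperones (DESeq2 3 higher), 2 of 23 for the cell cycle (DESeq2 0), 7 of 20 for macrophage identity (DESeq2 2 higher) and 0 of 10 for reference genes (DESeq2 0). The medians of these 7 lists ran from -0.44 for ATF4 to 0.59 for the cell cycle. Actb and Gapdh, a cytoskeletal and a glycolytic reference gene, were at -0.07 and 0.50.

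**Figure D4:**
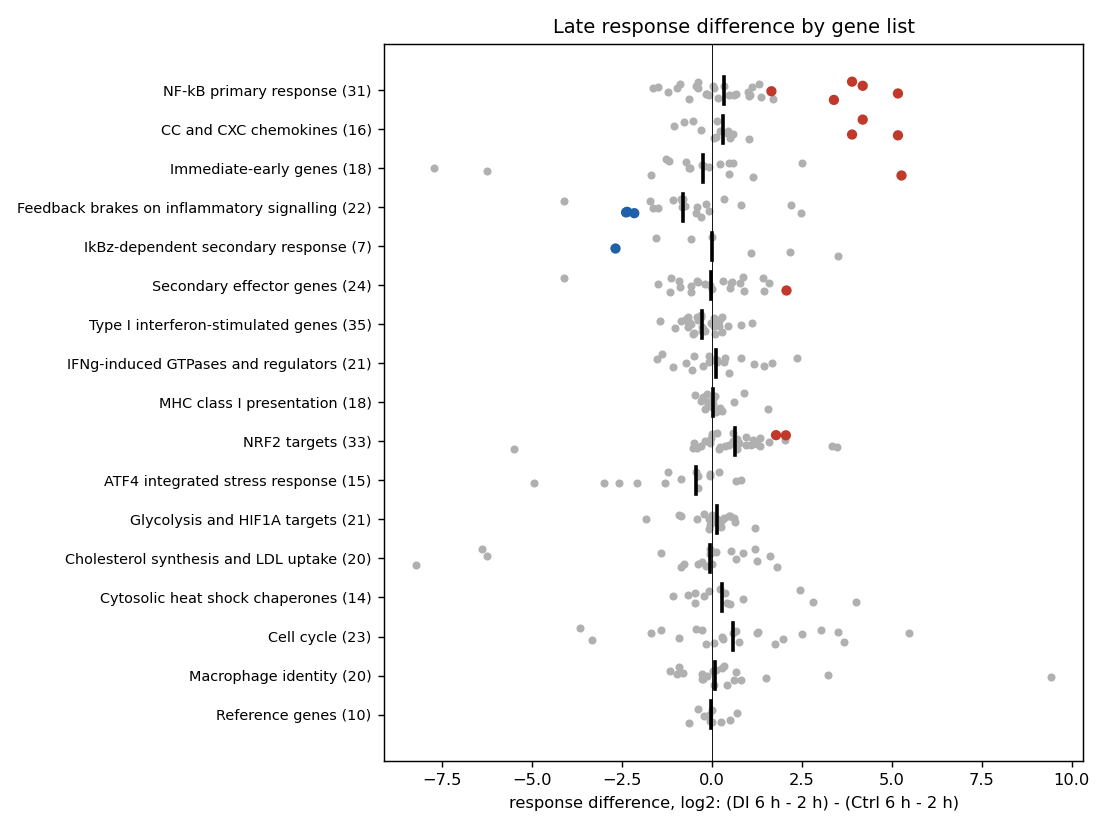
Log2 response difference, 2 h to 6 h, for the tested members of each gene list; each point is a gene, red points are called higher and blue points called lower, grey ones are not called, and the bar is the list's median. The called points of the NF-kB and chemokine lists lie right of 0 and those of the feedback brakes left of it, with medians of 0.32, 0.32 and -0.82.

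A class of genes was taken from the 0 h and 1 h libraries alone, those that rose at least 2-fold at 1 h in Ctrl and also in DI. It held 228 tested genes, of which 13 (5.70%) were called in the response difference, 8 higher and 5 lower, against 0.619% of all genes. The higher ones were Egr2, Cxcl1, Cxcl2, Gdf15, Ppp1r15a, Phlda1, Slc7a11 and Tnf, and the lower ones were Il18rap, Tnip3, Il4ra, Nfil3 and Dusp1. As a whole the class had more calls of a fall in DI than in Ctrl, a count whose difference was not tested. Between 2 h and 6 h 59 members fell in Ctrl and 74 fell in DI, 44 of them in both, against 6.35% and 5.53% of all genes, and 107 were called in neither. The median response difference of the class was -0.21, with median steps of -0.12 in Ctrl and -0.40 in DI. Genes that shared the early rise thus parted in both directions after 2 h.

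The 1 h and 4 h libraries share no library with this contrast, so the same difference was formed from them, (DI at 4 h minus DI at 1 h) minus (Ctrl at 4 h minus Ctrl at 1 h). There 49 genes passed the test, 0.46% of those tested, 22 higher (0.206%) and 27 lower (0.253%), or 29 and 17 with the scaling on genes of at least 32 CPM. Of the 35 genes higher from 2 h to 6 h, 32 were positive from 1 h to 4 h and 8 were called higher, beside 46.7% positive among all genes. Of the 31 lower genes 29 were negative and 5 were called lower. Each gene's spread was estimated over all 20 libraries and served both spans, so the calls of the 2 spans are not independent. The genes called in both spans with 1 sign were 8 higher, among them Egr2, Slc43a2, Zfp36l1, Jade1, Ppp1r15a, Tnf and Slc7a11, and 5 lower, namely Tnip3, Ext1, Cp, Fbrsl1 and Tmem110, some of them outside the rule for named genes and listed after their values were seen. Cxcl1 had 2.00 ± 0.53 and Cxcl2 1.36 ± 0.41 from 1 h to 4 h (adjusted p = 0.11 and 0.20), while Cxcl3 had -0.57 ± 0.62 (adjusted p = 0.87).

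**Figure D5:**
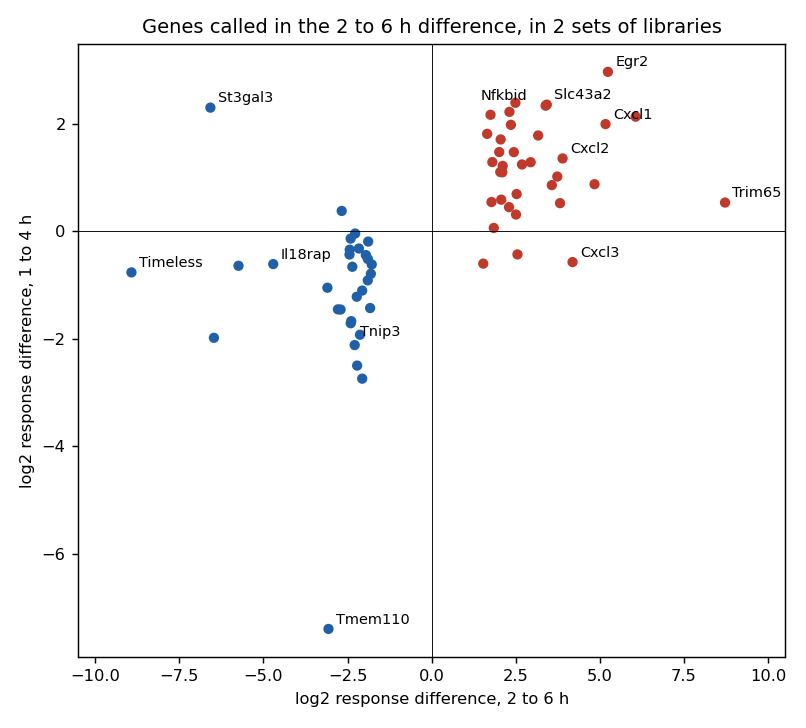
The 66 called genes, with the log2 response difference from 2 h to 6 h on the x axis and from 1 h to 4 h, in other libraries, on the y axis. Of the 35 genes right of 0, 32 lie above 0 on the y axis, and of the 31 left of 0, 29 lie below it.

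The libraries at 2 h and 6 h held 3655977 to 8051197 reads assigned to genes in Ctrl and 3982073 to 5273860 in DI. Genes without a read numbered 9725 to 10859 in Ctrl and 11382 to 12356 in DI, and genes with 1 to 3 reads 1478 to 1741 and 478 to 674, so the treatments differed in library complexity as well. The part of this in the results was not tested, and treatment and complexity cannot be told apart here. Without the second DI replicate at both times, the libraries with the most genes at 0, 18 genes were called, 13 of them among the 66. Macrophage identity markers summed to 9633 to 13622 CPM, with 19 or 20 of 20 detected and Cx3cr1 the one at 0 in 4 libraries. Lymphocyte markers summed to 0.379 to 3.42 CPM with Cd3e and Ncr1 at 0 throughout. Stromal markers summed to 40.6 and 40.7 CPM in Ctrl at 2 h and to 44.0 and 49.0 CPM at 6 h. In DI they summed to 30.5 and 29.8 CPM and then 28.3 and 30.9 CPM, below every Ctrl library. Mast cell, basophil and erythroid markers summed to 0 to 2.04 CPM. The part of these markers in the called genes was likewise not tested. In bulk RNA, fewer cells of a type and less RNA per cell cannot be told apart.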

How the data were processed

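The authors deposited 1 table of raw read counts per gene for 20 libraries of BMDM poly(A) RNA, read from 3' ends with a barcoded oligo-dT primer per the labels' protocols. STAR, HTSeq, DESeq2 and mm10 are named in the submitters' processing notes without versions. No unique molecular identifiers are named, and PCR copies (12 cycles) are therefore counted as reads. The counts were tested with edgeR 4.0.16 in R 4.3.3. Of 22165 genes 10663 passed filterByExpr by group, libraries were scaled by TMM, and 1 robust quasi-likelihood model with a coefficient for each of 10 groups of 2 was fitted over all 20 libraries (10 residual degrees of freedom). P-values were adjusted by Benjamini-Hochberg over all genes tested, and calls are at 0.05 with no fold limit. SE is the size of the log2 change divided by the square root of F. CPM values of single genes use the TMM library sizes, and marker sums use all reads of each library without TMM factors. Floors for genes at 0 are 3 counts over the group.

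Alternatives were DESeq2 1.42.0 (scaling or Wald test), limma 3.58.1 voom, other filters, scaling on genes of at least 32 CPM, only the 4 groups of the contrast, a replicate block and omission of libraries. No library column duplicated another. The same fit was also run on simulated counts whose spread was set wider in DI than in Ctrl. Its outcome is not reported here, so the simulation lends the calls no support. Named genes are the up to 12 largest called differences in each direction at 20 CPM or more in a group, a panel of known response genes, the 3 smallest p-values of each list and up to 6 in each direction among early-rise genes. The members and lists were chosen with earlier results of these data known. Some genes that the rule names are not reported here.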

Additional observations from a re-analysis of the deposited data

Results flagged for a closer look

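Each of the 66 called genes has a step from 2 h to 6 h that differed between DI and Ctrl by a test of the difference itself, edgeR's quasi-likelihood test of the interaction. All values here are log2 response differences, and genes outside the rule for named genes are listed because they were called. Values are given for 63 of them. Many rest on single libraries: 17 of the 66 calls held without each of the 8 libraries in turn and 49 were lost without at least 1.

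Among signalling proteins and cytokines the higher values were 5.17 for Cxcl1, 4.19 for Cxcl3, 3.89 for Cxcl2, 2.69 for Gdf15, 2.53 for the tyrosine phosphatase Ptpre and 1.65 for Tnf. Among transcription and chromatin regulators they were 6.06 for the clock repressor Bhlhe41, 5.24 for Egr2, 3.39 for Nfkbid, 2.31 for Jade1 and 1.85 for the histone methyltransferase Setd1b. Bhlhe41 in Ctrl went from 101 reads at 2 h to 1 at 6 h, a ratio of 53.3-fold with a counting interval of 9.34 to 2124, and its value was 9.16 without the second Ctrl library at 6 h (adjusted p = 0.0241).

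Among membrane transporters and enzymes the higher values were 4.84 for the adenylate cyclase Adcy9, 3.82 for Abcb4, 3.42 for Slc43a2, 2.51 for Slc16a10, 2.30 for Slc39a6, 2.07 for the AMP deaminase Ampd3, 2.05 for Slc7a11 and 1.78 for Srxn1. Adcy9 in Ctrl went from 153 reads to 1, and its value was 7.94 without the second Ctrl library at 6 h, with the call lost (adjusted p = 0.0999).

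The ubiquitin ligase Mylip was at 1.53. The values for survival, stress and RNA decay genes were 2.36 for Ppp1r15a, 2.11 for Phlda1, 1.80 for Bcl2l11 and 1.75 for Zfp36l1. The other higher values were 8.72 for Trim65, 3.73 for Tmem86a, 3.57 for Ptchd1, 2.94 for Myo18a, 2.55 for Rhob, 2.44 for Cdk18, 2.10 for Epb41l1, 2.04 for Pcdh7 and 2.01 for Map7d1. Trim65 had no read in DI at 2 h and 61 at 6 h, at least 20.1-fold higher against a floor of 3 counts over the group.

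Among receptors and signalling proteins the lower values were -4.71 for Il18rap, -3.10 for the BMP receptor Acvr1, -2.44 for March1, -2.39 for Tnip3, -2.36 for Il4ra, -2.16 for Dusp1, -2.13 for Sh3bp5, -1.90 for Cyth4 and -1.89 for the diacylglycerol kinase Dgkh. The secreted proteins were -2.71 for Saa3, -2.67 for Olfm1 and -2.21 for Cp. The nuclear and RNA-binding proteins were -8.92 for Timeless, -2.41 for Atxn7l1, -2.29 for Fbrsl1, -2.27 for Nfil3, -1.96 for Phf23, -1.81 for the splicing regulator Mbnl1 and -1.78 for Chd6. Timeless had 50 reads in DI at 2 h and 0 at 6 h, at least 16.9-fold lower.

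The other lower values were -6.58 for the sialyltransferase St3gal3, -6.47 for Ccdc117, -5.74 for 4933430I17Rik, -3.07 for Tmem110, -2.43 for Ssh2, -2.41 for Pdik1l, -2.23 for Lims1, -2.06 for Ext1, -2.06 for Bmp2k, -1.90 for Atp8a1 and -1.83 for Nipa2. Ccdc117 was at 4.65 and 75.9 CPM in the 2 Ctrl libraries at 6 h, and without the second its value was -3.36 and the call was lost (adjusted p = 0.464). St3gal3 was at -11.01 without the first DI library at 6 h (adjusted p = 0.0228). In DI 4933430I17Rik went from 104 reads to 1, a ratio of 105-fold with a counting interval of 18.5 to 4205.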

How the results depend on the processing

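All 66 called genes had the same sign under every alternative that gave a value, but 9 kept their call under every one: Cxcl1, Cxcl2, Cxcl3, Slc43a2, Slc16a10, Nfkbid, Tnip3, Il4ra and Timeless. Counts moved more. The response difference from 2 h to 6 h (66 calls) had 209 without a filter on low counts, 241 by DESeq2's Wald test, 18 with only the 4 groups fitted, 18 without the second DI replicate at both times, and 24 to 148 without single libraries. From 1 h to 4 h (49 calls) the counts were 126 without the filter, 121 by DESeq2, 31 by limma-voom, 22 with only the groups of the contrast and 6 to 98 without single libraries. The 13 calls among early-rise genes were 33 without the filter, 36 by DESeq2, 8 of 115 when the early rise had to reach 2 (log2), and 10 to 16 without single libraries. The DI step (1089 calls) had 704 among genes of at least 32 CPM, 414 without the second DI replicate at both times and 623 to 1015 without single libraries, and the Ctrl step (1344 calls) 621 to 710. Where a setting tests fewer or more genes or fits fewer libraries its own construction changes the count, and otherwise the cause was not tested. Scaling on genes of at least 32 CPM split the 66 calls into 40 higher and 26 lower and shifted the median of all genes by -0.13 for the Ctrl step and 0.17 for the span from 1 h to 4 h. Limma-voom split its 51 calls into 17 higher and 34 lower. Gene by gene, same-numbered replicates did not deviate together between the 4 groups (correlations of -0.0846 to 0.0193). In DI the second replicate still held more genes at 0 than the first. These were 12019 against 11428 at 2 h and 12356 against 11382 at 6 h. Whether the replicate numbers mark libraries handled together was not tested. With a replicate block 64 genes were called, 61 of them shared. Of 73 uncalled named genes 13 changed sign under some alternative. Of the 66 called genes 6 were under 20 CPM in each of the 4 groups; the effect of depth on the calls was not tested.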
